A study of Mus musculus with 12 samples.

Results

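Cell cycle and DNA replication genes were followed in T cells sorted from mouse thymus. A list of 52 genes was taken by symbol from the deposited expression table, and all 52 of them were found there, out of 13207 genes in all. They were divided into 18 genes of the G1/S transition and DNA replication, 29 genes of G2 and mitosis (G2/M), and 5 others, namely the D-type cyclin genes Ccnd2 and Ccnd3 with Stmn1, Hmgb2 and Lmnb1. The division rested on the known function of each gene.

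The study traced how regulatory T cells (Treg) arise in the thymus by time-stamping cells with the fluorescent protein tdTomato. C57BL/6 mice were given 10 µg of tamoxifen per g of body weight by intraperitoneal injection, and thymocytes were sorted 7 days afterwards. The 4 gates, all on CD4+ cells of tamoxifen-treated mice, gave 3 libraries each. CD73+ new Treg were tdTomato+GFP+CD73+, CD73- new Treg were tdTomato+GFP+CD73-, new conventional T cells (Tconv) were tdTomato+GFP-CD73-, and tdTomato- Treg were tdTomato-GFP+ and not split by CD73, an ectoenzyme of the cell surface. The alleles carrying the reporters, the promoter driving the tamoxifen-sensitive recombinase, and the age of the mice are not given in the sources used here. Whether the libraries of a group stem from different mice is not stated either, so every p-value below measures the spread between libraries only. The letters A, B and D in the library titles are used below as replicate names, though the labels do not say what they mark. Series of 3 values below are in that order.

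Cells that leave quiescence make D-type cyclins, which with their kinases release E2F transcription factors, and E2F-driven genes then supply the MCM helicase, the sliding clamp PCNA and the enzymes of nucleotide synthesis for S phase. Genes of G2 and mitosis follow later, largely under MuvB complexes with B-MYB and FOXM1, which act through promoter elements named CHR and CCAAT. In the thymus most division takes place among immature cells before and at the double-positive stage, while CD4 single-positive cells divide much less.

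The promoters of the members carry these elements to different extents. Motifs were searched on both strands in the 250 bases before each RefSeq start site (build GRCm38.p6), and 41 of the 52 members had an entry there: 15 of 18 G1/S genes with 17 promoters, 24 of 29 G2/M genes with 24 promoters, and 2 of the 5 others with 3. An E2F-type motif (TTTCCCGC, TTTGGCGC, TTTGCCGC or TTTCGCGC) was present in 5 of 17 G1/S promoters (29.4%) and in 1 of 24 G2/M promoters (4.17%), that of Cdk1, against 1.86% of all 32851 promoters. A CHR-type motif (TTTGAA or TTTAAA) was present in 15 of 24 G2/M promoters (62.5%) and 5 of 17 G1/S promoters (29.4%), against 25.2% of all promoters. CCAAT was present in 22 of 24 G2/M promoters (91.7%) and 12 of 17 G1/S promoters (70.6%), against 33.8% of all. CHR and CCAAT together were found in 14 of 24 G2/M promoters (58.3%), 3 of 17 G1/S promoters (17.6%) and 8.78% of all promoters. No motif contains another. Among promoters of the genes tested here, of which there were 11323, the shares were 3.45% for E2F, 17.6% for CHR, 35.9% for CCAAT and 6.64% for CHR with CCAAT. A match is a run of letters and not a shown binding site.

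The promoters of 2 MCM helicase genes and 2 mitotic genes are printed to show these elements, each read 5′ to 3′ on the strand of its gene and ending at the base before the start site. Capitals mark E2F-type, CHR-type and CCAAT matches on either strand, so that CCAAT on the other strand reads ATTGG, and neighbouring or overlapping matches run together. The windows are chr8:75109259-75109508 (plus strand) for Mcm5, chr1:128359706-128359955 (minus strand) for Mcm6, chr11:99024190-99024439 (minus strand) for Top2a, and chr9:70421555-70421804 (minus strand) for Ccnb2.
Mcm5: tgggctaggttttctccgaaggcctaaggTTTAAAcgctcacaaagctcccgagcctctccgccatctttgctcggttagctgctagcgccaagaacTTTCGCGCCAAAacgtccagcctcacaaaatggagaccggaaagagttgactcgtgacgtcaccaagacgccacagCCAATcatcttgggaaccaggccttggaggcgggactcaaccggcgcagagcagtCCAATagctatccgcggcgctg
Mcm6: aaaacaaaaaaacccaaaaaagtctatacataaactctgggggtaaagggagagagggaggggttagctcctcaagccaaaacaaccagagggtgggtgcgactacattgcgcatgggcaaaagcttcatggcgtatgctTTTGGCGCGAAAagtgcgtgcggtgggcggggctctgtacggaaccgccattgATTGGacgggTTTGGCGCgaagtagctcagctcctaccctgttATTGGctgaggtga
Top2a: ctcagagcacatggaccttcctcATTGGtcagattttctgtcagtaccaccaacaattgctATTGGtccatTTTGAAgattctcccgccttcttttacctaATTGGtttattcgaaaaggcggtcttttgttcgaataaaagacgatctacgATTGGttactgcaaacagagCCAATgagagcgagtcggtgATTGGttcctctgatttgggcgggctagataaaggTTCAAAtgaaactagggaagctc
Ccnb2: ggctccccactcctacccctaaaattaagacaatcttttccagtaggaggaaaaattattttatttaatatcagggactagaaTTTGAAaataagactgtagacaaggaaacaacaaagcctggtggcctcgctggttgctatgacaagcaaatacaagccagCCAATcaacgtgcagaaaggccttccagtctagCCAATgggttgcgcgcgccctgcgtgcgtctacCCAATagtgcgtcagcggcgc
E2F-type letters stand in both printed MCM promoters and in neither printed mitotic one, and CCAAT recurs in all 4. The promoters of Mcm2 and Mcm3 held no E2F-type match. Of the 2 Mcm7 promoters, that at chr5:138171884-138172133 held such a match and that at chr5:138171267-138171516 did not.

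The libraries had an effective depth of 11000000 to 21400000 counts, at which 3 counts correspond to a log2 CPM (CPM being counts relative to library size) between −2.61 and −1.65. All members were above this in every library and all passed the filter on low values, the lowest estimated count being 5, for Ube2c. Foxp3, which defines Treg, was at 9.19, 9.16 and 9.11 in CD73+, CD73- and tdTomato- Treg and at 0.18 in Tconv, and the group means of Cd4 were 8.42 to 9.28. Reads given to the mitochondrial tRNA synthetase gene Lars2 made up 16.1% to 32.4% of a library, lowest in Tconv replicate B, which was also the deepest library. Both Treg groups divided by CD73 form 1 deposited table, and the tdTomato- Treg and Tconv the other. The tables were normalised separately, so tests were made within a table and levels from both are only set side by side. The median offset between them over 6681 well expressed genes was 0.01.

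Across the 4 groups, new Tconv stood highest and CD73- new Treg lowest. The mean log2 CPM was highest in Tconv for 46 of 52 members, against 39.0% of all genes with values in both tables, and lowest in CD73- new Treg for 43 of 52, against 24.3%. The order Tconv, tdTomato- Treg, CD73+ Treg, CD73- Treg held for 26 members, and the order Tconv, CD73+ Treg, tdTomato- Treg, CD73- Treg for 14. Of the 6 members whose level was not highest in Tconv, Tk1 and Cks2 were highest in tdTomato- Treg, and Smc4, Cenpa, Ccnd2 and Ccnd3 were highest in CD73- new Treg. These orders were not tested, since they cross the tables. In bulk libraries of this kind, fewer dividing cells and less RNA per dividing cell cannot be told apart.

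**Figure D1:**
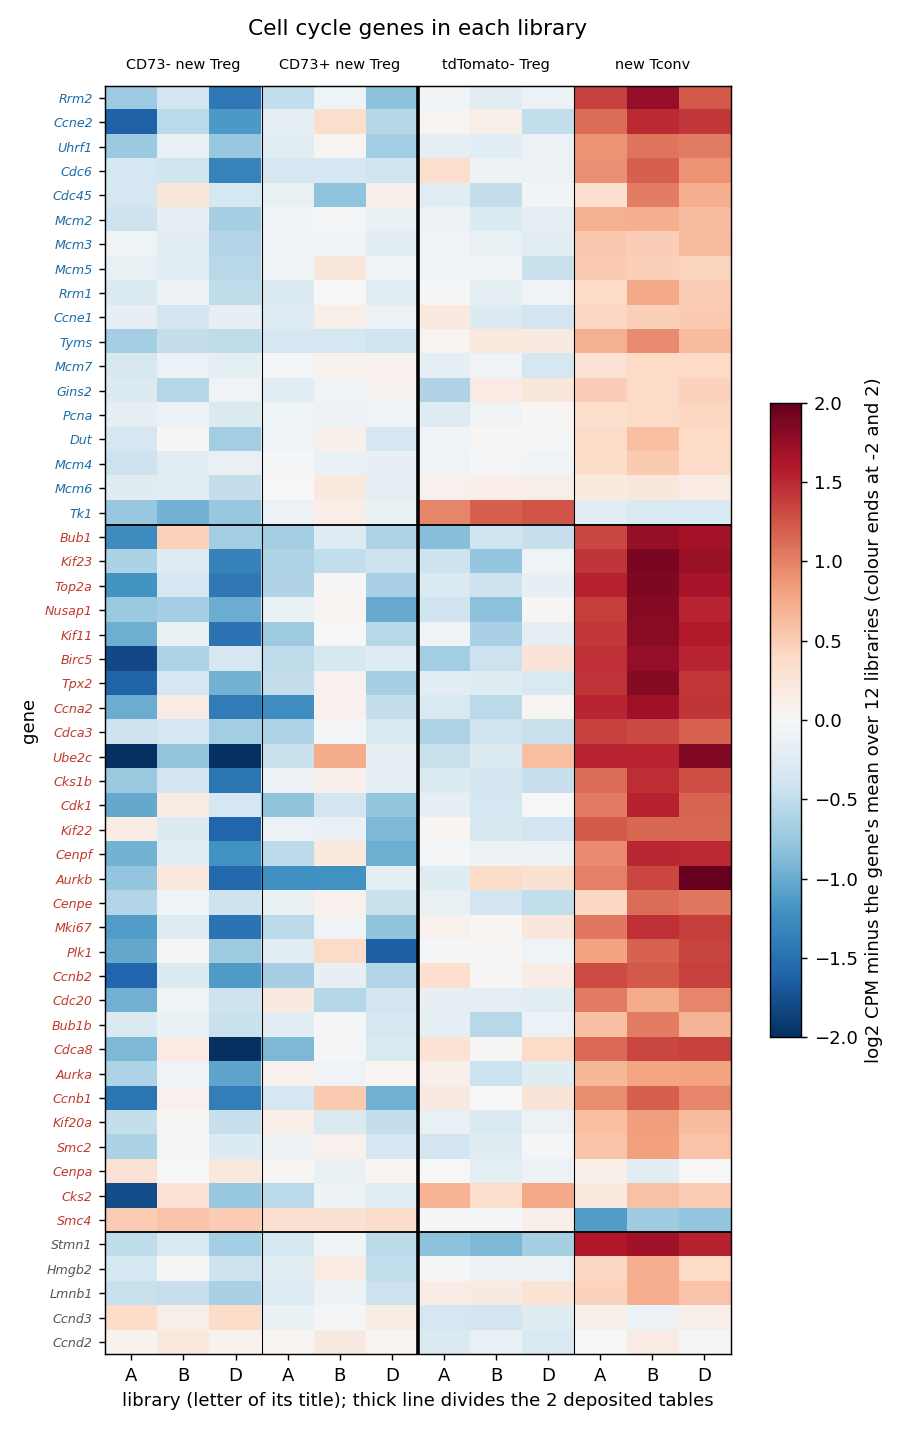
Level of the 52 genes (rows) in the 12 libraries (columns), as log2 CPM minus the mean of the gene over all libraries, with G1/S genes in blue letters, G2/M genes in red and the 5 others in grey. The 3 Tconv columns are red for most genes, Tk1 is highest in the tdTomato- Treg columns, and Smc4 is lowest in the Tconv columns.

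The summed CPM of the 18 G1/S genes was 687, 743 and 704 in the Tconv libraries and 477, 486 and 480 in tdTomato- Treg, a mean of 711 ± 28.5 (SD, n = 3) against 481 ± 4.53. The ratio was 0.676, and 0.654 to 0.694 in the pairs of the same letter. In CD73+ new Treg the sum was 468, 502 and 448 and in CD73- new Treg 405, 441 and 370, a mean of 473 ± 27.7 against 406 ± 35.5 and a ratio of 1.17 (1.14 to 1.21 in the pairs). Tconv lay above all other libraries without overlap. The 2 CD73 groups did not overlap here either, the lowest CD73+ library being at 448 and the highest CD73- library at 441.

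The sum over all 29 G2/M genes differed little: 1266 ± 147 in Tconv, 1127 ± 59.9 in tdTomato- Treg, 1276 ± 35.7 in CD73+ and 1378 ± 86.1 in CD73- new Treg. Smc4 weighs most in it, with the highest mean log2 CPM of these genes in every group (8.72 in Tconv to 10.13 in CD73- new Treg). Cenpa was lower (group means 5.69 to 5.96). Smc4 and Cenpa were both highest in CD73- new Treg. Without these 2 genes, a choice made after seeing the values, the sum was 688, 877 and 796 in Tconv and 291, 272 and 318 in tdTomato- Treg, a mean of 787 ± 94.6 against 293 ± 23.2 and a ratio of 0.373 (0.31 to 0.422 in the pairs). It was 232, 311 and 207 in CD73+ new Treg and 164, 278 and 152 in CD73- new Treg, a mean of 250 ± 54.2 against 198 ± 69.3 and a ratio of 1.27 (1.12 to 1.41). Those last groups overlapped, CD73- replicate B at 278 lying above CD73+ replicates A and D. No test was made on sums over members.

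**Figure D2:**
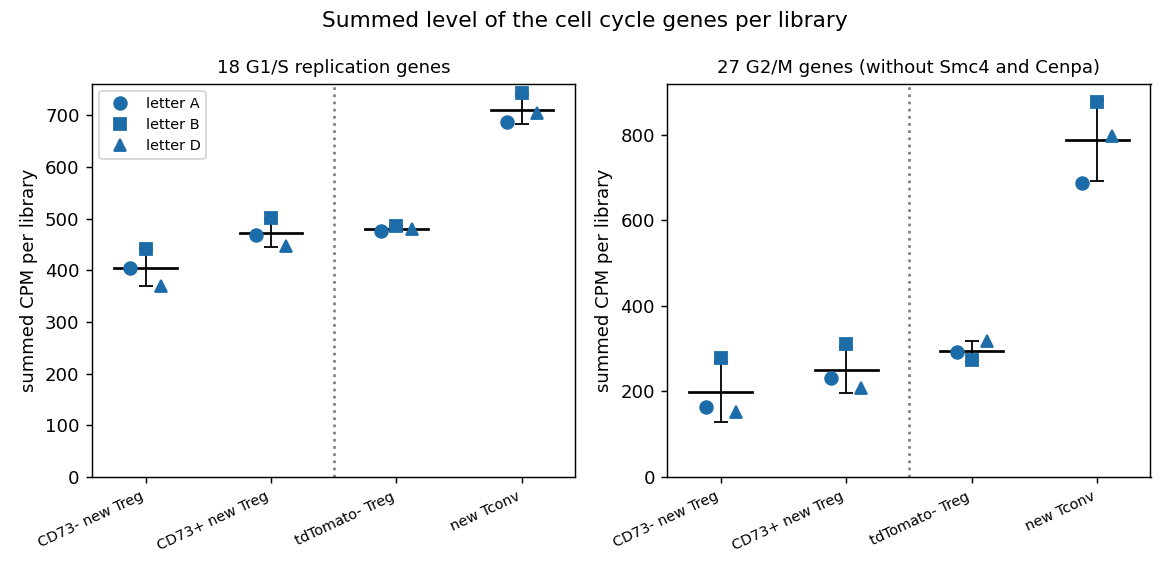
Summed CPM per library of the 18 G1/S genes (left) and of 27 G2/M genes without Smc4 and Cenpa (right) in the 4 groups. Points are libraries, marked by letter, bars are group means with SD (n = 3), and a dotted line divides the 2 deposited tables; Tconv libraries stand at 687 to 743 on the left and 688 to 877 on the right.

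The comparison of tdTomato- Treg with new Tconv sets Treg without the time stamp against newly made conventional cells. These groups differ at once in cell type, in time stamp and in the CD73 gate, which cannot be told apart here. Of 52 members, 44 were lower in the Treg and 2 were higher, with an adjusted p under 0.05 in limma, where 25.7% of all 11198 genes tested were lower and 26.4% higher. At an unadjusted p under 0.05 they were 46 and 2, against 28.5% and 28.6% of all genes. By arm, 15 of 18 G1/S genes, 24 of 29 G2/M genes and 5 of 5 others were lower. The groups did not overlap for 48 members lower in the Treg and 2 higher, against 30.5% of all genes in each direction. The median log2 fold change was −0.64 over the G1/S genes, −1.31 over the G2/M genes and −0.38 over the others, beside −0.01 over all genes tested.

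Helicase and clamp genes of replication fell. Mcm2, an MCM helicase subunit (chr6:88883474-88898780), was at 6.09, 6.11 and 5.99 in Tconv and at 5.27, 5.11 and 5.19 in tdTomato- Treg (log2 fold change −0.87, SE 0.10, adjusted p = 1e-06). Mcm7, another subunit, was at 5.81, 5.92 and 5.93 in Tconv and 5.33, 5.45 and 5.19 in the Treg (−0.56, SE 0.08, adjusted p = 1.5e-05). Neither gene had a Treg library as high as the lowest Tconv library. Pcna, the sliding clamp, was at 6.84, 6.87 and 6.92 in Tconv and 6.22, 6.41 and 6.52 in the Treg (−0.49, SE 0.07, adjusted p = 1.7e-05), again without overlap. The subunits Mcm3, Mcm4 and Mcm5 fell by 0.70, 0.48 and 0.67. Mcm6 differed from its partner subunits in having nearly equal levels, 6.28, 6.32 and 6.25 in Tconv and 6.18, 6.22 and 6.21 in the Treg (−0.08, SE 0.09, adjusted p = 0.47).

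Origin firing and the G1/S cyclins followed the same direction. Cdc6, which loads the helicase, fell by 0.96 (SE 0.24, adjusted p = 0.0032) and Cdc45, a helicase partner, by 0.94 (SE 0.26, adjusted p = 0.0055). The cyclin E genes Ccne1 and Ccne2 fell by 0.63 and 1.45. Gins2, a subunit of the GINS complex, had a log2 fold change of −0.51 (SE 0.26, adjusted p = 0.11). Uhrf1, which couples DNA methylation to replication, was at 5.35, 5.52 and 5.49 in Tconv and 4.28, 4.24 and 4.33 in the Treg (−1.17, SE 0.17, adjusted p = 2e-05).

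Among enzymes of nucleotide supply, one stood against the rest. Tk1, thymidine kinase of the salvage route (chr11:117815526-117826092), was at 3.66, 3.87 and 3.94 in tdTomato- Treg and at 2.46, 2.37 and 2.37 in Tconv. That is a 2.68-fold higher level without overlap (log2 1.42, SE 0.15, adjusted p = 6.5e-07). Rrm2, the regulated subunit of ribonucleotide reductase, went the other way with a fall by 1.59 (SE 0.23, adjusted p = 2.5e-05). Its partner Rrm1 fell by 0.65, thymidylate synthase Tyms by 0.61 and the dUTPase gene Dut by 0.48. Tk1 was thus the only G1/S gene of the 18 above the threshold in that direction.

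Mitotic genes showed the wider differences. Top2a, the topoisomerase that untangles chromosomes (chr11:98992943-99024189), was at 7.26, 7.60 and 7.38 in Tconv and 5.43, 5.31 and 5.56 in tdTomato- Treg (log2 fold change −1.98, SE 0.21, adjusted p = 7.3e-07), so that the Treg had 0.253 of the Tconv level. Kif23, a kinesin of cytokinesis, was at 4.39, 4.84 and 4.69 against 2.55, 2.19 and 2.88 (−2.10, SE 0.24, adjusted p = 1.1e-06). Each of these genes was higher in every Tconv library than in any Treg library. Cdca3, which promotes mitotic entry, was at 3.44, 3.39 and 3.25 in Tconv and 1.46, 1.68 and 1.62 in the Treg (−1.77, SE 0.20, adjusted p = 1.1e-06). Nusap1, a spindle protein, was at 3.94, 4.37 and 4.07 in Tconv and 2.15, 1.73 and 2.58 in the Treg (−1.97, SE 0.26, adjusted p = 7.1e-06). Their groups, too, were apart.

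The proliferation marker Mki67 was at 7.63, 8.03 and 7.96 in Tconv and 6.65, 6.61 and 6.80 in tdTomato- Treg, a fall by 1.19 (SE 0.22, adjusted p = 0.0003). In the mitotic cyclin and kinase group, Cdk1 fell by 1.44, the cyclin genes Ccna2 and Ccnb2 by 1.81 and 1.13, Plk1 by 1.14, and the Aurora kinase genes Aurka and Aurkb by 0.94 and 1.31. Ccnb1 had a log2 fold change of −0.89 (SE 0.38, adjusted p = 0.062), though its groups did not overlap (2.62, 2.89 and 2.67 against 1.87, 1.70 and 1.95). The fit pools the spread of all 4 groups, and the SD of Ccnb1 was 0.74 in CD73+ and 0.87 in CD73- new Treg. It passed the threshold in the fit of only the 2 groups, and its false discovery rate in the authors' deposited table is 0.000974. The kinase cofactor gene Cks1b fell by 1.66, whereas its relative Cks2 had a log2 fold change of 0.18 (SE 0.36, adjusted p = 0.71), which was below 0 with quantile normalisation. Spindle checkpoint genes fell, Bub1 by 2.15, Bub1b by 1.06 and Cdc20, the activator of the anaphase-promoting complex, by 1.10. Ube2c, the ubiquitin-conjugating enzyme of that complex, fell by 1.67.

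The kinesin genes Kif11, Kif20a and Kif22 fell by 1.90, 0.88 and 1.40, the spindle factor Tpx2 by 1.82, and Birc5, a chromosomal passenger subunit, by 1.87. Cdca8, another subunit of that complex, had a log2 fold change of −1.05 (SE 0.46, adjusted p = 0.065). Its groups did not overlap, at 2.95, 3.15 and 3.18 in Tconv and 2.10, 1.84 and 2.19 in the Treg. Its SD was 0.13 and 0.18 there but 1.38 in CD73- new Treg, which also enter the pooled spread. Cdca8 passed the threshold in the fit of only the 2 groups, and its false discovery rate in the authors' deposited table is 0.00016. The kinetochore genes Cenpe and Cenpf fell by 1.20 and 1.40, but Cenpa, the histone H3 variant of centromeres, was at 5.91, 5.56 and 5.80 in Tconv and 5.80, 5.61 and 5.67 in the Treg (−0.06, SE 0.09, adjusted p = 0.60).

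Both core ATPases of condensin are members and they went in opposite directions. Smc2 fell by 0.87 (SE 0.14, adjusted p = 6.1e-05). Smc4 (chr3:69004738-69034623), which forms a dimer with Smc2 and whose gene also hosts a microRNA cluster, stood at 9.57, 9.57 and 9.69 in tdTomato- Treg against 8.48, 8.88 and 8.80 in Tconv, a rise by 0.89 (SE 0.07, adjusted p = 3.4e-08). No Tconv library reached the lowest Treg library for Smc4. The deposited values do not tell transcripts of a gene apart.

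Of the 5 remaining genes, Stmn1, a microtubule-destabilising protein of dividing cells (chr4:134468320-134473843), differed most. It was at 6.74, 6.83 and 6.69 in Tconv and 4.32, 4.25 and 4.48 in tdTomato- Treg (log2 fold change −2.40, SE 0.11, adjusted p = 1.6e-11), or 0.189 of the Tconv level. Hmgb2, a chromatin protein, was at 6.70, 7.02 and 6.68 against 6.27, 6.18 and 6.17 (−0.59, SE 0.14, adjusted p = 0.0017). Lmnb1, which encodes lamin B1, fell by 0.38 (SE 0.09, adjusted p = 0.002). The cyclin D genes differed least, Ccnd3 being at 8.38, 8.14 and 8.38 against 7.91, 7.88 and 8.01 (−0.37, SE 0.08, adjusted p = 0.0013) and Ccnd2 at 9.86, 10.03 and 9.84 against 9.58, 9.73 and 9.57 (−0.28, SE 0.06, adjusted p = 0.0013).

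**Figure D3:**
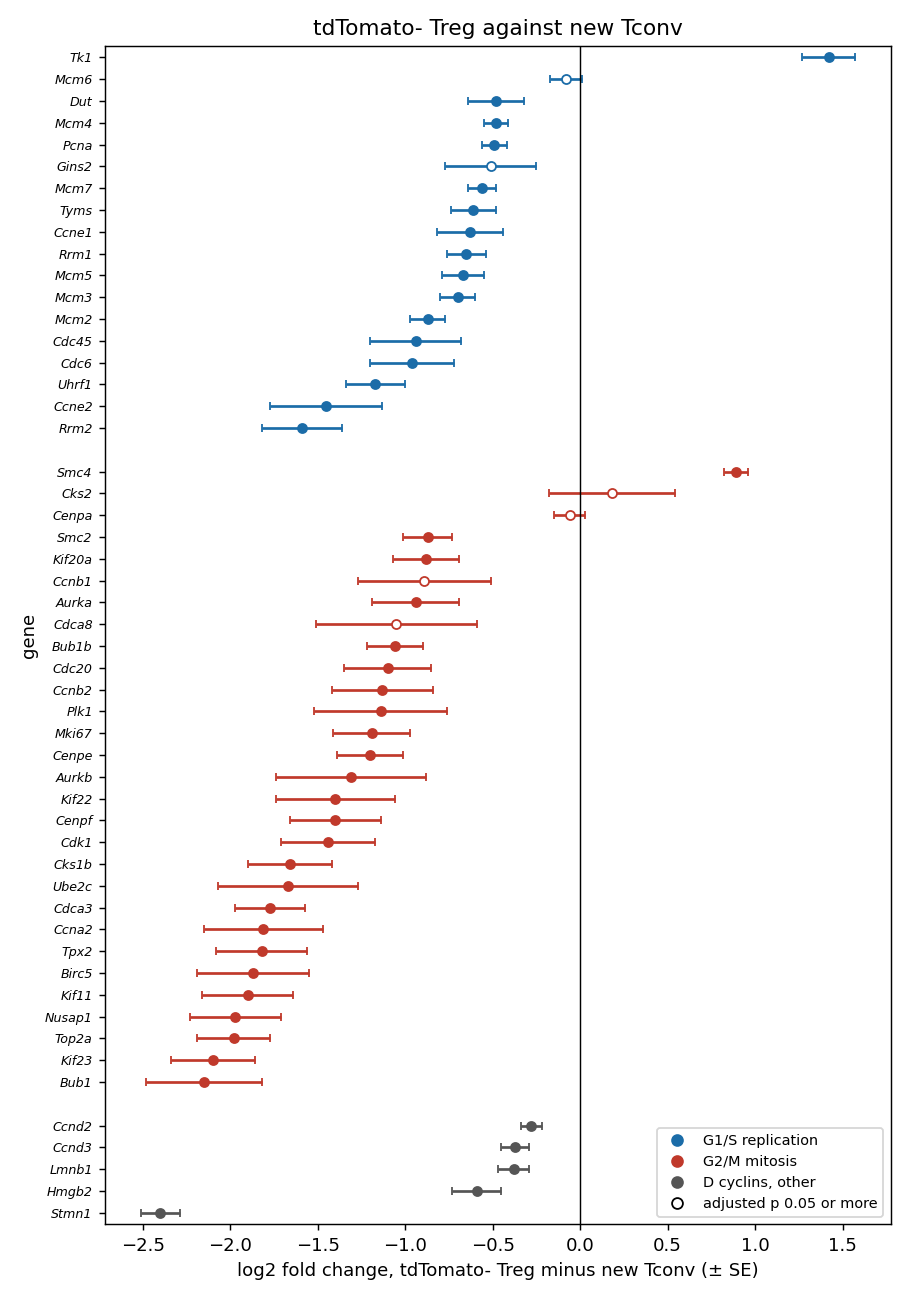
Log2 fold change of each gene, tdTomato- Treg minus new Tconv, with the standard error of the fit, by arm; open points have an adjusted p of 0.05 or more. Tk1 (1.42) and Smc4 (0.89) lie to the right, and most G2/M genes lie further left than the G1/S genes.

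Calls that rest on 1 library were few. Aurkb was no longer past the threshold without tdTomato- Treg replicate A or Tconv replicate D, Dut without tdTomato- Treg replicate A or Tconv replicate B, Ccne1 without tdTomato- Treg replicate D, and Plk1 without tdTomato- Treg replicate D or Tconv replicate B or D (highest adjusted p = 0.0878, 0.069, 0.0563 and 0.0675). Quantile normalisation, which moved the median of all genes to −0.09, gave 47 lower members and left Tk1 and Smc4 as the 2 higher ones.

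Wider lists of cell cycle genes that are not members were read in the same comparison. Of 52 other mitotic genes tested, 48 were lower in tdTomato- Treg and 1 higher (median log2 fold change −1.32), with the condensin subunit gene Ncapd2, the centromere chaperone gene Hjurp and the citron kinase gene Cit falling by 0.85, 0.71 and 1.34, and the securin gene Pttg1 rising by 0.93. Of 46 other replication factor genes, 28 were lower and 0 higher by limma (29 and 0 at an unadjusted p under 0.05, against 28.5% of all genes lower and 28.6% higher, and 29 and 0 also with the block; median −0.47), among them Dnmt1, the maintenance DNA methyltransferase (−0.73), Dbf4, the activator of the origin-firing kinase (−1.11), and Chaf1b of the histone chaperone CAF-1 (−1.28). The mitotic list thus held a larger share of lower genes than the replication list, a contrast that was not tested.

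Genes upstream in the cycle are to be read against the 25.7% of all genes that were lower and the 26.4% that were higher. Of 19 genes of E2F, DREAM and other cell cycle transcription factors, 10 were lower and 4 higher. Foxm1, Tfdp1 and the E2F repressor gene E2f7 fell by 1.20, 0.61 and 2.08, while Myb, Myc and Tfdp2 rose by 1.02, 0.72 and 0.37. Of 14 other G1 cyclin, kinase and phosphatase genes, 4 were lower and 2 higher, with Cdc25a, Cdk2 and Cdk4 falling by 1.52, 0.77 and 0.44 and Cdk6 and Cdc25b rising by 0.68 and 0.96. Of 17 inhibitors of cyclin-dependent kinases and genes of quiescence, 8 were higher and 6 lower. The pocket protein genes Rbl2 and Rb1 rose by 0.58 and 0.46 and the antiproliferative gene Btg2 by 0.41, while Foxp1 and Rbl1 fell by 0.51 and 0.72.

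Markers of immature thymocytes were present at different levels in these groups. The summed CPM of 11 double-positive and immature thymocyte markers was 391 to 398 in the Tconv libraries and 209 to 224 in tdTomato- Treg, with 2 of 9 tested markers lower in the Treg (Themis and Cd8b1) and 3 higher, Arpp21 and Rag1 among them. Cd8a, a defining marker of that stage, was at 1.25 in Tconv and 0.41 in tdTomato- Treg. Themis, which mature T cells also express, was at 8.29 and 6.89. The summed CPM of 7 measured erythroid markers was 154 to 183 in Tconv and 154 to 198 in tdTomato- Treg, with 2 of 6 tested markers higher in the Treg and 1 lower. The summed CPM of 8 measured double-negative and early blast markers, among them Il2ra, which Treg also express, was 330 to 397 in Tconv and 1238 to 1299 in the Treg, with 4 of 6 tested higher in the Treg and 1 lower. Markers of other cells were low and summed higher in the Treg, at 7.89 to 10.3 against 3.47 to 4.85 CPM for 6 B cell genes, 30.3 to 41.9 against 22.9 to 24.3 for 11 myeloid and dendritic genes, and 7.18 to 9.75 against 4.07 to 4.46 for 4 thymic epithelial genes. Of those tested, 1 of 2, 3 of 6 and 1 of 2 were higher in the Treg and 0, 1 and 0 lower. The part of such cells in the differences above was not tested.

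The comparison of CD73+ with CD73- new Treg asks how time-stamped Treg differ by this surface enzyme. Of 52 members, 2 were higher in the CD73+ cells, Tk1 and Ube2c, and 0 lower, at the same threshold in limma, where 1.79% of 11170 genes tested were higher and 0.654% lower. No other member reached the threshold, although 44 of the 52 fold changes were above 0, against 51.0% of all genes. At an unadjusted p under 0.05 the limma fit had 13 members higher, against 9.68% of all genes, and 3 lower (Ccnd3, Cenpa and Smc4), against 7.50%. The median log2 fold change was 0.25 over the G1/S genes, 0.24 over the G2/M genes and 0.07 over the others, beside 0.01 over all genes. By the authors' deposited table, Tk1 and Ube2c have a false discovery rate of 0.111 and 0.209, and neither would pass there.

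Tk1 was at 2.57, 2.82 and 2.53 in CD73+ and 1.93, 1.73 and 1.92 in CD73- new Treg (log2 fold change 0.78, SE 0.15, adjusted p = 0.014), a 1.72-fold difference without overlap. Its call ended without CD73+ replicate B (adjusted p = 0.0721). Ube2c (chr2:164769898-164778822) was at 0.66, 1.85 and 0.94 in CD73+ and −0.91, 0.31 and −1.00 in CD73- cells (1.68, SE 0.40, adjusted p = 0.034). It is a low gene, its groups were apart, and its call was lost on leaving out CD73+ replicate A, B or D, CD73- replicate A or D, or tdTomato- Treg replicate B (limma, adjusted p up to 0.17). In a fit of only these 2 groups neither gene passed (limma, adjusted p = 0.101 for Tk1 and 0.123 for Ube2c), nor did either with the libraries of letter A or of letter D left out, nor Tk1 without letter B. Ube2c also missed the threshold with quantile normalisation and without the intensity trend. Both genes were above their CD73- partner in all 3 pairs of the same letter.

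Libraries of the same letter deviated together in these data, and a fit that took the letters as a replicate block called 8 members higher, against 3.32% of all genes, and 1 lower, against 2.32%. The 8 were Tk1, Ube2c, the helicase genes Mcm2, Mcm5, Mcm6 and Mcm7, Cks1b and Top2a, and the lower one was Ccnd3. Without the block, 9 members had groups that did not overlap with CD73+ higher, against 10.0% of all genes, and 1 with CD73+ lower, Smc4, against 8.18%. All 3 pairs were higher in CD73+ cells for 26 members, against 20.4% of genes, and lower for 4, against 19.5%. By arm, these 26 were 13 of 18 G1/S genes, 11 of 29 G2/M genes and 2 of 5 others, and the 4 were Cenpa, Smc4, Ccnd2 and Ccnd3.

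No MCM gene passed the threshold in the fit over all 12 libraries without the block. On leaving out CD73- replicate B or letter B Mcm2 passed, and on leaving out CD73+ replicate D Mcm6 did (limma, lowest adjusted p = 0.0074 and 0.0232). Mcm2 was at 5.33, 5.36 and 5.25 in CD73+ and 4.96, 5.19 and 4.71 in CD73- cells (log2 fold change 0.36, SE 0.10, adjusted p = 0.063, and 0.017 with the replicate block). Mcm6 was at 6.08, 6.29 and 5.90 against 5.85, 5.87 and 5.61 (0.31, SE 0.09, adjusted p = 0.071, and 0.011 with the block). These groups did not overlap, the lowest CD73+ library lying just above the highest CD73- library for Mcm6. Mcm7 was at 5.50, 5.60 and 5.61 against 5.20, 5.41 and 5.34 (0.25, SE 0.08, adjusted p = 0.11, and 0.042 with the block). Ccne2, a cyclin E gene of low level, was at 1.02, 1.56 and 0.64 against −0.42, 0.67 and 0.06 (0.97, SE 0.32, adjusted p = 0.13), with replicate B of CD73- cells just above replicate D of CD73+ cells. The same-letter differences were 0.03, 0.13 and 0.37 for Mcm3, 0.38, 0.08 and −0.01 for Mcm4 and 0.08, 0.45 and 0.49 for Mcm5. Pcna was at 6.39, 6.37 and 6.40 against 6.30, 6.37 and 6.19 (0.10, SE 0.07, adjusted p = 0.49).

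Mitotic genes, and to a smaller extent replication genes, varied more among the libraries of both CD73 groups than among those of the other groups. The median SD over the 29 G2/M genes was 0.57 in CD73- and 0.31 in CD73+ new Treg, beside 0.17 in tdTomato- Treg and 0.19 in Tconv. In the same order it was 0.23, 0.15, 0.11 and 0.08 over the 18 G1/S genes. Over the 5 others it was 0.14, 0.16, 0.07 and 0.14. The spread over all genes tested was not computed. Replicate B was the highest CD73- library for 40 of 52 members, against 34.7% of all genes, and the highest CD73+ library for 34, against 37.0%. Replicate B was also the highest Tconv library for 34 members, against 39.4%, and the highest tdTomato- Treg library for 12, against 32.8%. What sets this library letter apart was not tested.

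Top2a was at 5.12, 5.75 and 5.07 in CD73+ and 4.53, 5.39 and 4.30 in CD73- cells (log2 fold change 0.57, SE 0.21, adjusted p = 0.18, and 0.033 with the block). Each CD73+ library was above its partner of the same letter while the groups overlapped. Cks1b was at 2.01, 2.23 and 1.93 against 1.38, 1.76 and 0.67 (0.79, SE 0.24, adjusted p = 0.099, and 0.042 with the block). Aurka was at 1.73, 1.56 and 1.68 against 1.02, 1.57 and 0.58 (0.60, SE 0.25, adjusted p = 0.23). Mki67 was at 6.03, 6.50 and 5.77 against 5.45, 6.32 and 5.10 (0.48, SE 0.22, adjusted p = 0.29). In these genes CD73- replicate B reached CD73+ levels, except for Cks1b.

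Smc4 and Cenpa leaned the other way. Smc4 was at 9.91, 9.90 and 9.96 in CD73+ and 10.11, 10.16 and 10.11 in CD73- cells, without overlap (log2 fold change −0.20, SE 0.07, adjusted p = 0.17). Its false discovery rate in the authors' deposited table is 0.0128. Cenpa was at 5.81, 5.64 and 5.83 against 6.08, 5.80 and 6.00 (−0.20, SE 0.09, adjusted p = 0.29). Both were lower in all 3 pairs.

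Among the 5 others, Ccnd3 was at 8.13, 8.22 and 8.41 in CD73+ and 8.62, 8.38 and 8.63 in CD73- cells (log2 fold change −0.29, SE 0.08, adjusted p = 0.08, and 0.0045 with the replicate block). Ccnd2 was even, at 9.92, 10.06 and 9.92 against 9.94, 10.08 and 9.95 (−0.02, SE 0.06, adjusted p = 0.89, and above 0 with quantile normalisation). Neither cyclin D gene was higher in any of the 3 pairs. Lmnb1 was at 5.19, 5.35 and 5.03 against 5.01, 4.99 and 4.81, without overlap (0.25, SE 0.09, adjusted p = 0.16). Stmn1 was at 4.79, 5.07 and 4.62 against 4.63, 4.84 and 4.47 (0.18, SE 0.11, adjusted p = 0.44), and Hmgb2 at 6.08, 6.45 and 5.80 against 5.94, 6.31 and 5.87 (0.07, SE 0.14, adjusted p = 0.84).

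**Figure D4:**
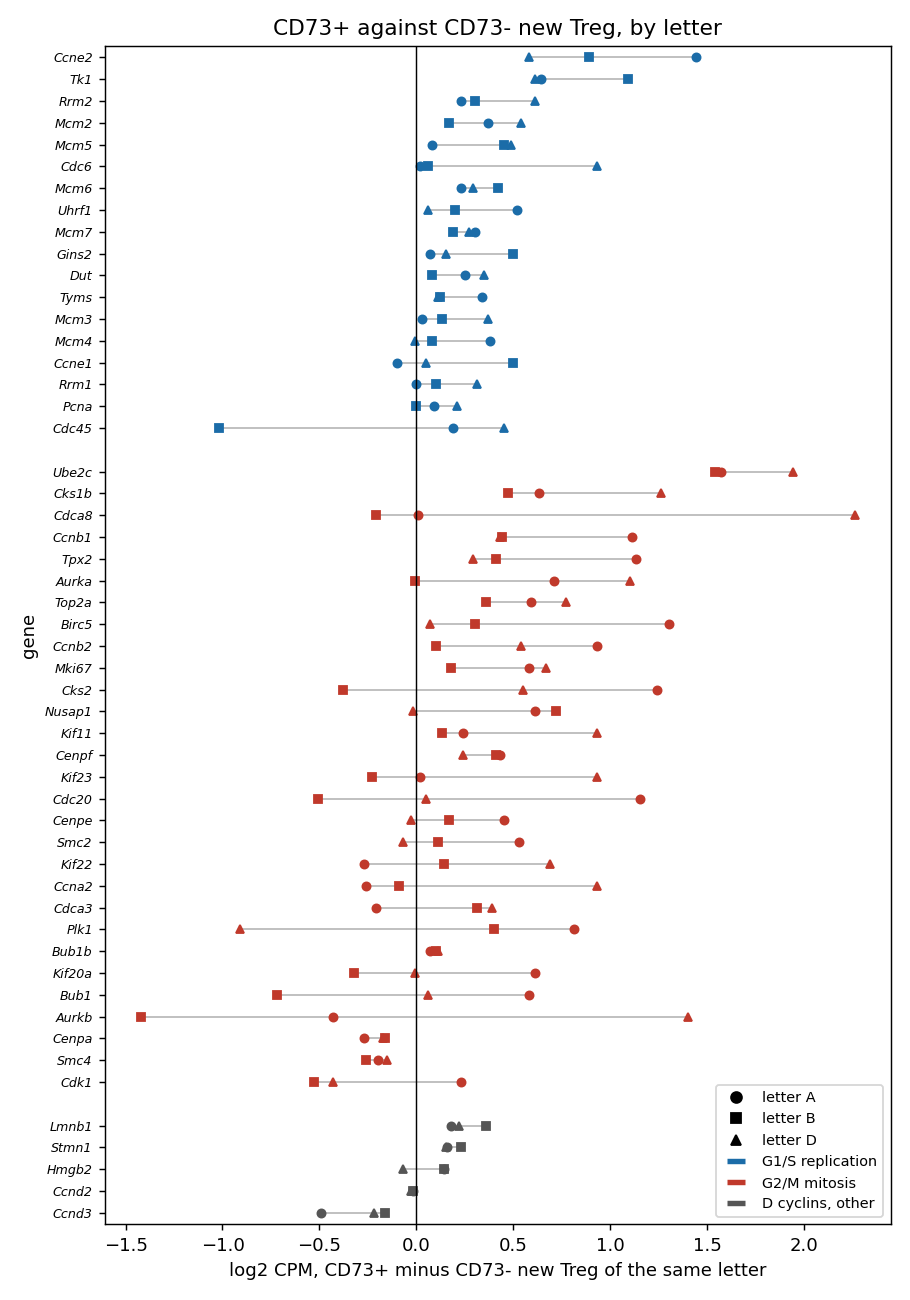
Difference in log2 CPM between CD73+ and CD73- new Treg of the same letter, 3 points for each gene joined by a line, by arm and ordered by log2 fold change. For 26 genes all 3 points lie to the right of 0 and for 4 to the left, and the points of many low G2/M genes are spread widely.

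The wider lists held few changes here. Of the 19 cell cycle transcription factor genes, E2f2 was higher in CD73+ cells (log2 fold change 0.38, SE 0.08, adjusted p = 0.022), and of 14 other G1 cyclin, kinase and phosphatase genes Cdc25b was higher (0.81, SE 0.12, adjusted p = 0.0021). None of 46 other replication factor genes, 52 other mitotic genes and 17 inhibitor and quiescence genes passed the threshold in either direction with limma. At an unadjusted p under 0.05 these lists had 5, 10 and 1 genes higher and 2, 2 and 2 lower, where 9.68% of all genes were higher and 7.50% lower, and their median log2 fold changes were 0.07, 0.24 and −0.05. With the replicate block 1 of the other mitotic genes was higher and 1 lower, and 2 of the inhibitor and quiescence genes were lower. The double-positive and immature markers summed to 225 to 253 CPM in CD73+ and 295 to 375 in CD73- libraries, with Themis and Aqp11 lower in CD73+ cells and 0 of 9 higher. The summed level of immature markers was lower in the CD73+ cells, where the sum of replication genes was higher. Between tdTomato- Treg and Tconv, in contrast, both sums were higher in Tconv. The marker sum includes Themis, which mature T cells also express. The part of immature cells was not tested.

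**Figure D5:**
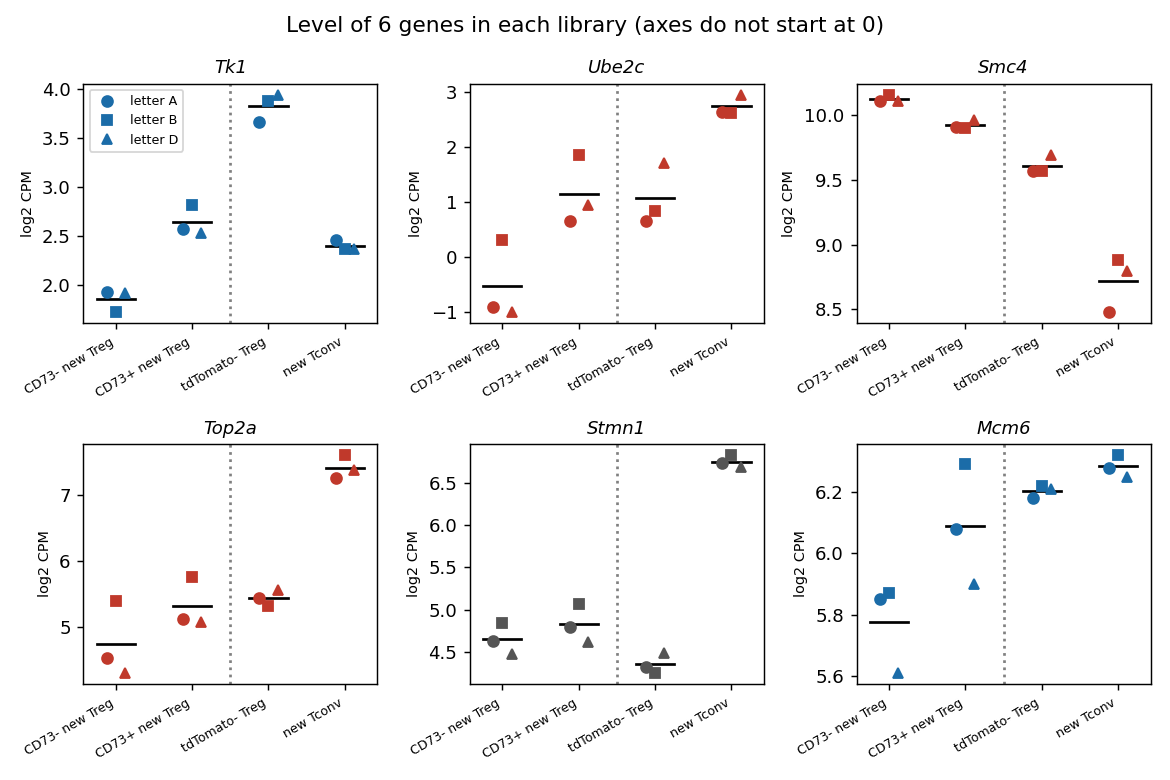
Log2 CPM of Tk1, Ube2c, Smc4, Top2a, Stmn1 and Mcm6 in each library by group, with bars for group means and a dotted line between the 2 deposited tables; axes do not start at 0. Tk1 is highest in tdTomato- Treg (3.66 to 3.94), Smc4 is highest in CD73- new Treg and lowest in Tconv, and Top2a and Stmn1 are highest in Tconv.

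Tk1, Cdc25b and E2f2 were higher in both comparisons, in CD73+ over CD73- new Treg and in tdTomato- Treg over Tconv. Of all genes tested, 1.79% were higher in CD73+ new Treg and 26.4% in tdTomato- Treg. The share of all genes higher in both was not counted. For Cdc25b the group means were 4.53, 3.72, 5.32 and 4.36 in CD73+, CD73-, tdTomato- Treg and Tconv, and for E2f2 they were 5.23, 4.85, 5.75 and 5.30. The comparisons have no library in common, though they share 1 estimate of the spread. Some reads may also belong to neighbours: 10% or more of the exonic bases of Gins2 (67.3%), Kif20a (29.3%), Ube2c (22.8%), Ccne2 (17.4%), Mcm7 (12.6%) and Ccna2 (12.5%) are also exonic in another gene in GENCODE, and whether counting used strand is not given in the sources used here. A further 6 members have pseudogenes named after them, Ccnb1, Ccnb2, Ccnd3, Kif22, Pcna and Tyms, so their counts may hold reads of near-identical copies.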

How the data were processed

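RNA sequencing libraries of 12 sorted thymocyte samples were used. STAR, RSEM and limma are listed as tools, with mm10 as the build, in the submitters' processing notes; their versions and settings are not given in the sources used here. Log2 CPM values (with an offset of 0.5 counts, as read from the values) were deposited by the authors in 2 merged tables, each normalised on its own over 6 libraries, with their own log2 fold changes, p-values and false discovery rates, and t statistics (a score, per the file headers), the last not used here. Genes reaching a log2 CPM of 0 in 3 or more libraries were tested with limma 3.58.1 in R 4.3.3, with 4 group means in 1 fit over all 12 libraries, an intensity trend and no block. Tests were two-sided and adjusted by Benjamini-Hochberg over all genes of a comparison, with a threshold of 0.05. The procedure was tested on simulated data with independent noise and the same SD for a gene in every library. That simulation held no correlation between libraries of a letter and no unequal spread between groups, so it cannot show how these affect the calls. The members, their arms, the wider lists and the motifs were chosen with earlier results of these data known.

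Values in every library are given for the 5 members of each arm and comparison with the smallest p, members past the threshold are named, as are the 2 of highest level per arm among the rest and up to 3 genes per direction of each wider list. Values of some single list genes are not given here. Mki67, Mcm6, Cenpa, Smc4 and Pcna values beyond this rule were added after they were seen. Pairing was checked over 9341 genes by the correlation of deviations from group means: libraries of the same letter correlated at 0.17, 0.32 and 0.265 between the CD73 groups and 0.13, 0.154 and 0.102 between tdTomato- Treg and Tconv, all above 0.1, and the letter was therefore also fitted as a replicate block. Limits at 3 counts cover counting error only. Gene positions are from GENCODE on GRCm38 (mm10) and promoter sequences from RefSeq on GRCm38.p6. Alternatives were no filter, a filter at log2 CPM 1, an added pseudocount of 1 CPM, quantile normalisation, median centring, the 2 groups alone, the block, no intensity trend, and leaving out each library or letter.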

Additional observations from a re-analysis of the deposited data

How the results depend on the processing

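The comparison of tdTomato- Treg with Tconv gave 2 higher members, Tk1 and Smc4, in every alternative run, and 41 to 47 lower ones. The comparison of CD73+ with CD73- new Treg moved more. Of the 52 members, 2 were higher and 0 lower, and of all genes 200 were higher and 73 lower. With the replicate block, in which libraries of a letter are paired, the counts were 8 and 1 members and 371 and 259 genes; the cause was not tested. With only the 2 groups compared, in a fit of fewer libraries, they were 0 and 1 members (Smc4 lower) and 113 and 33 genes. Why these counts differ was not tested. Without the intensity trend they were 1 and 0 members and 98 and 9 genes, and with quantile normalisation 1 member was higher; the cause was not tested in either. Leaving out letter A, all 4 of its libraries, gave 0 members and 21 and 2 genes, leaving out letter D gave 0 members and 38 and 5 genes, and leaving out letter B gave 4 members higher and 1 lower. Leaving out 1 library gave 0 to 8 members higher (0 without CD73+ replicate B, 8 without CD73- replicate B), 0 to 1 lower, 78 to 275 genes higher and 14 to 114 lower. The difference between group means of the log2 summed G2/M level was −0.11 with all 29 genes and 0.37 without Smc4 and Cenpa for the CD73 groups, and −0.16 and −1.42 for tdTomato- Treg against Tconv, an alternative chosen after seeing the data and set by the weight of Smc4 in the sum. The block changed the calls of Ccnb1 and Cdca8 in tdTomato- Treg against Tconv, both lower with it. The lowest estimated count of a member in a library was 5, for Ube2c.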
